A study of Rattus norvegicus with 4 samples.

Results

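Genes of homologous recombination, the Fanconi anaemia pathway and the DNA damage checkpoint were examined in the RNA-seq of cultured rat Schwann cells (SCs). They were a list of 39 gene symbols that was matched to the gene symbols of the count table. Of these, 29 had a row, among 17949 rows in all, and all 29 passed the filter on low counts. The other 10 listed genes (Brip1, Rad51b, Xrcc3, Blm, Slx4, Fancg, Fancm, Fanci, Atr and Topbp1) were not analysed here.

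Homologous recombination copies the intact sister chromatid to repair a broken chromosome, and it is used mainly in S and G2 phase, when a sister is present. The MRE11-RAD50-NBN complex and CtIP open the break by resection, EXO1 extends the single strand, and BRCA1-BARD1, PALB2 and BRCA2 prepare that strand, with further cofactors, to invade the sister. The Fanconi proteins act on crosslinks between the DNA strands and on stalled forks, where a core complex puts ubiquitin on FANCD2-FANCI. The kinases ATM and ATR, with CHK2 and CHK1 downstream, halt the cell cycle when breaks or stalled forks persist. SCs, the glia of peripheral nerves, divide in culture when given serum, forskolin and a neuregulin, and they re-enter the cell cycle after nerve injury.

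All samples were primary SCs of rat sciatic nerve, grown in medium with 10% serum, 4 μM forskolin and 5 ng/ml heregulin, and infected with a lentivirus for 48 h. The Lenti-GFP group (n = 2) received a control virus that carries a green fluorescent protein. The Lenti-AS group (n = 2) received a virus that expresses the Egr2-AS, an antisense RNA of the Egr2 promoter, from a vector with a red fluorescent reporter, so the reporter also differed between the groups. The comparison asked which genes change when the Egr2-AS is expressed. The labels call the samples biological replicates without naming cultures or animals, so p-values measure the spread between these samples, which may be technical, and the strain, sex and age of the rats are not given in the sources used here. The table holds no row for the Egr2-AS, and its level could not serve as a check of the labels.

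Total counts per sample were between 74024323 and 96185890. All 10 Schwann cell markers examined were detected, the lowest at a mean of 66.7 CPM (counts per 1000000, on library sizes scaled by the TMM method). None of the 10 was called, 9 were fitted above 0 with a median log2 fold change of 0.21, 5 were higher and 1 lower at an unadjusted p under 0.05, and the list summed to 7286 and 7290 CPM in Lenti-GFP against 9177 and 8003 CPM in Lenti-AS. Of 6 macrophage markers, Aif1, Cd163, Itgam and Ptprc were too low to be tested, and the 6 together summed to 3.30 and 3.32 CPM in Lenti-GFP, and to 3.94 and 4.34 CPM in Lenti-AS. Of 5 endothelial markers, Cdh5 and Emcn were too low to be tested, and the list, mostly Tek, summed to 20.7 and 20.5 CPM in Lenti-GFP against 15.8 and 15.1 CPM in Lenti-AS. Tek was called lower by DESeq2 (adjusted p = 0.00324) and not by edgeR (adjusted p = 0.0559), with a log2 fold change of -0.42. Of 6 smooth muscle or pericyte markers, 4 were tested, and the list summed to 26.5 and 26.6 CPM in Lenti-GFP against 24.5 and 20.9 CPM in Lenti-AS. Of 8 fibroblast markers, Thy1, Dpt, Lum and Dcn were too low to be tested. The list summed to 1261 and 1094 CPM in Lenti-GFP, 2699 CPM in Lenti-AS 1 and 692 CPM in Lenti-AS 2, mostly through Col1a1. The 6 erythroid markers with a row summed to between 3.46 and 6.41 CPM in 3 samples and to 2480 CPM in Lenti-AS 2, from globin genes. The part of the Schwann cell and endothelial lists in the results below was not tested. The Lenti-AS samples differed from one another in fibroblast and globin transcripts, and results are given below without each sample in turn and, for the calls, without the globin genes. The part of the fibroblast transcripts was not tested otherwise.

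Fitted levels were higher in Lenti-AS than in Lenti-GFP for 23 of the 29 repair and checkpoint genes, against 6385 of all 12446 genes tested. For 9 of the 29 the fitted change was under 0.1 in size on the log2 scale. By the test, 4 of the 29 rose. These were Fancd2, Bard1, Brca1 and Clspn, with fitted fold changes of 1.57, 1.55, 1.42 and 1.40. A gene was called at an adjusted p under 0.05 (edgeR's quasi-likelihood test, Benjamini-Hochberg over the 12446 genes tested) and a fold change of at least 1.3, the cut-offs of the study. The 4 genes were 13.8% of the 29, while 1.31% of all genes tested were called higher. None of the 29 was called lower by edgeR, where 0.667% of all genes were, or by DESeq2, where 1.12% were, and 0 had an unadjusted p under 0.05 in that direction, against 9.37% of all genes. At an unadjusted p under 0.05, 12 of the 29 (41.4%) were higher in Lenti-AS, against 12.5% of all genes tested. In 18 of the 29 (62.1%) the Lenti-AS samples both exceeded the higher Lenti-GFP sample, as in 27.7% of all genes tested, and in 14 of these 18 the gap between the groups was wider than the gap within either group. Only Rbbp8 had both Lenti-AS samples below both Lenti-GFP samples, against 27.2% of all genes. The median log2 fold change was 0.26 over the 29 genes and 0.01 over all genes tested. The genes were listed with earlier results of these data known, so these counts describe the list and are no test of it. In a bulk sample, more cells in S or G2 phase and more RNA per cell cannot be told apart.

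**Figure D1:**
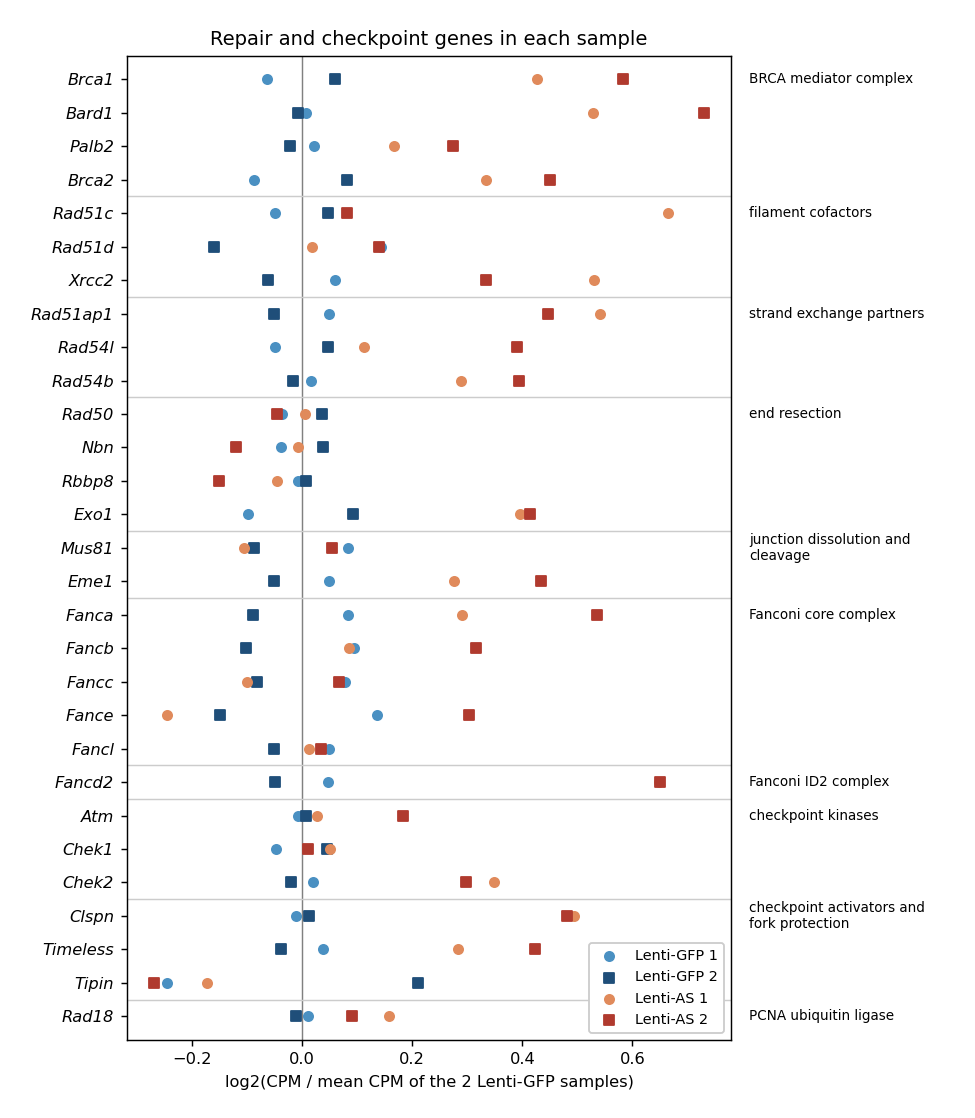
Level of each of the 29 repair and checkpoint genes in each sample, as log2 of the CPM over the mean CPM of the 2 Lenti-GFP samples, grouped by role (circles, replicate 1; squares, replicate 2). Both Lenti-AS samples lie to the right of both Lenti-GFP samples for 18 genes; for Fancd2 the 2 Lenti-AS points coincide.

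Of the 4 measured genes of the BRCA group, 2 were called. Brca1, a ubiquitin ligase subunit and scaffold that favours recombination over end joining, had 28.0 and 30.5 CPM in Lenti-GFP against 39.3 and 43.8 CPM in Lenti-AS. It rose from 29.2 ± 1.76 to 41.5 ± 3.18 CPM (SD, n = 2 each), with a log2 fold change of 0.51 (standard error 0.085). Its adjusted p of 0.0499 from edgeR's quasi-likelihood test lay just under the threshold, and it was not called by limma-voom (log2 fold change 0.50, adjusted p = 0.0525). Bard1 encodes the obligate RING partner of BRCA1. It had 15.0 and 14.9 CPM in Lenti-GFP against 21.5 and 24.8 CPM in Lenti-AS, and it rose by 0.63 on the log2 scale (standard error 0.091, adjusted p = 0.0389 from edgeR). In both genes the lower Lenti-AS sample stood well clear of the higher Lenti-GFP sample, by 8.81 CPM for Brca1 and 6.52 CPM for Bard1, and the Lenti-AS samples were farther from one another than the Lenti-GFP samples were.

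Brca2, a mediator that acts on resected single-stranded DNA, had 13.7 and 15.4 CPM in Lenti-GFP against 18.3 and 19.8 CPM in Lenti-AS. Its log2 fold change was 0.39 (standard error 0.095), and it was not called by edgeR (adjusted p = 0.10) but was called by DESeq2 (adjusted p = 0.0243). Palb2, the bridge between BRCA1 and BRCA2, had 11.5 and 11.1 CPM in Lenti-GFP against 12.7 and 13.7 CPM in Lenti-AS, and was called by neither tool (adjusted p = 0.237 and 0.276). For both genes the groups did not overlap, and the differences were smaller than those of Brca1 and Bard1 as fitted, though these differences between genes were not tested.

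Fancd2 had the lowest adjusted p and the highest fold change of the 29. Its product is the Fanconi protein that receives ubiquitin at a crosslink and clamps the DNA together with FANCI. It had 15.6 and 14.6 CPM in Lenti-GFP against 23.7 CPM in both Lenti-AS samples, from 1458, 1384, 2076 and 1782 counts. The rise was 0.65 on the log2 scale, with a standard error of 0.075, a 95% interval from 0.47 to 0.83 and an adjusted p of 0.0252 from edgeR. The gap between the groups, 8.07 CPM, was wider than the 1.02 CPM between the Lenti-GFP samples.

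Clspn encodes claspin, the adaptor through which ATR activates CHK1 at stalled forks. Its levels were 12.0 and 12.2 CPM in Lenti-GFP against 17.0 and 16.9 CPM in Lenti-AS, a rise of 0.49 on the log2 scale (standard error 0.080, adjusted p = 0.0465 from edgeR). Its replicates were close, 0.199 CPM apart in Lenti-GFP and 0.154 CPM apart in Lenti-AS. It was not called by limma-voom (log2 fold change 0.49, adjusted p = 0.0508), nor with the globin genes left out of the edgeR fit (log2 fold change 0.49, adjusted p = 0.0525).

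**Figure D2:**
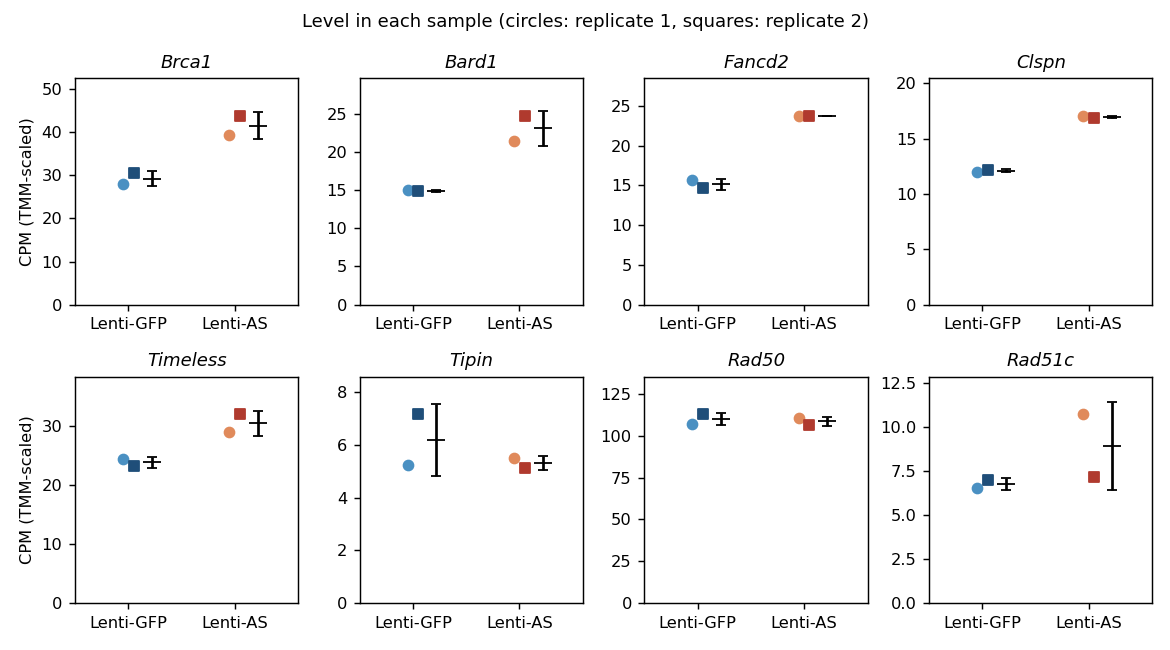
CPM of 8 genes in each sample, with zero-based axes; symbols are single samples and the bar beside them is the mean ± SD of each group (n = 2). The Lenti-AS samples lie above the Lenti-GFP samples for Brca1, Bard1, Fancd2, Clspn and Timeless, overlap them for Tipin and Rad50, and lie 3.56 CPM apart for Rad51c.

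To set the sequence beside the change, the RefSeq promoters (GRCr8 assembly, 250 bases before to 50 bases after the annotated start) of the listed genes were read. They were found for 25 of the 29 genes, and the counts themselves were made on the rn6 assembly. The 250 bases before the start are shown for the 4 called genes and for Rad50, the gene nearest to no change among those with a mean of at least 10 CPM. Capitals mark E2F-type motifs (TTTCCCGC, TTTGGCGC, TTTCGCGC or TTTGCCGC), the CHR motifs TTTGAA and TTTCGAA and the CCAAT box, on either strand, of which none overlapped another in these windows.
Fancd2, chr4:148234458-148234707, + strand: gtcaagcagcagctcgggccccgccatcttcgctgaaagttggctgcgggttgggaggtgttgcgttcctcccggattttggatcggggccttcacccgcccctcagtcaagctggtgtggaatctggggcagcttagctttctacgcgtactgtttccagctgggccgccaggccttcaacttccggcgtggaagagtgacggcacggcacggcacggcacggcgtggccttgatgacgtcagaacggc
Bard1, chr9:80143756-80144005, - strand: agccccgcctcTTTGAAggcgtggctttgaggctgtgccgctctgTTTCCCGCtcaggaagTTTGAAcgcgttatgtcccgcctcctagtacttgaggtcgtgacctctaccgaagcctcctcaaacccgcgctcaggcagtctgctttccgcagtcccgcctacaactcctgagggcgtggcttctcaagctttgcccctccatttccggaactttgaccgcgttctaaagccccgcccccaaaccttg
Clspn, chr5:144134387-144134636, + strand: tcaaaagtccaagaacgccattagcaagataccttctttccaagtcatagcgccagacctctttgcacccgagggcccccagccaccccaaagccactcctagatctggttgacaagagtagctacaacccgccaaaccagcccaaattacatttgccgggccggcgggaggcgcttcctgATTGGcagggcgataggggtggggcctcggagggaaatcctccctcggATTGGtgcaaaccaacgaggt
Brca1, chr10:86977582-86977831, - strand: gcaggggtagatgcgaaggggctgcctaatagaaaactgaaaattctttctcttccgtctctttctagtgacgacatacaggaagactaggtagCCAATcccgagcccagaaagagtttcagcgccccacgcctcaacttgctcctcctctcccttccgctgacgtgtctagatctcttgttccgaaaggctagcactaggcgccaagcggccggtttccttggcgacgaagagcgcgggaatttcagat
Rad50, chr10:38362101-38362350, - strand: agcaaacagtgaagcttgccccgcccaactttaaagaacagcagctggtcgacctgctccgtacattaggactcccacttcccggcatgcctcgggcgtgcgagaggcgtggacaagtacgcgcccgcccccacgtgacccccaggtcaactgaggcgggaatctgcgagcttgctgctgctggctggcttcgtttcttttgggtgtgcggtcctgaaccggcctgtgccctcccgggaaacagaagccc

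E2F factors drive genes of the S phase, and the CHR element is bound by the DREAM and B-MYB complexes that time genes of mitosis. The E2F-type motifs were found in 10 of the 25 promoters (40.0%), against 2.14% of all 33469 promoters in the table and 3.95% of the 9487 promoters of genes tested. The 10 sites are shown with up to 10 bases on each side, read on the strand of the gene, with the motif in capitals.
Fancd2, chr4:148234707-148234734, + strand: cgtccgacaaGCGGGAAAgtcgaaaacg
Bard1, chr9:80143943-80143970, - strand: tgccgctctgTTTCCCGCtcaggaagtt
Clspn, chr5:144134648-144134675, + strand: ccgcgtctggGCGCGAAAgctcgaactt
Atm, chr8:62828851-62828878, - strand: atccgtgcacGCGGGAAAaggcgaagcg
Chek1, chr8:44629854-44629881, - strand: gcaggttttgGCGGGAAAagctgtgcac
Fancc, chr17:1687050-1687077, + strand: ccttgcgaccGCGGGAAAattccaaact
Fancl, chr14:104451011-104451036, + strand: tgttgcgccaTTTCCCGCtgctgctt
Rad51d, chr10:68321899-68321926, - strand: cctgcatcctTTTCCCGCcccctcgtcc
Timeless, chr7:1239440-1239467, + strand: ctgccgagtgGCGGGAAAgtctgcgacc
Tipin, chr8:73676050-73676077, + strand: cgtacccttgGCGCCAAActtcccagct

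Of the 10 promoters with an E2F-type motif, 3 belonged to called genes (3 of the 4 called) and 7 to genes that were not called (7 of 21). Chek1 and Fancc carried the motif 28 and 29 bases before the start, and their levels overlapped between the groups. Counted from base 1 at the start, the motif began at base 10 in Fancd2 and at base 22 in Clspn, so neither stands in the upstream stretches printed above. In Timeless it began at base 1. The CHR motifs were in 4 of the 25 promoters (16.0%; Bard1, Eme1, Rad51c and Rbbp8), against 12.4% of promoters of genes tested, and the CCAAT box was in 8 (32.0%), against 37.5%. A match is a description of these letters, and no match says only that they are not in this window.

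Timeless and Tipin encode partners that travel with the replication fork and support claspin, and their levels went apart as fitted. Timeless had 24.4 and 23.2 CPM in Lenti-GFP against 28.9 and 31.9 CPM in Lenti-AS. It had a fold change of 1.28, under the 1.3 limit (0.35 on the log2 scale, standard error 0.076), with an adjusted p of 0.0809 from edgeR and 0.0119 from DESeq2. Tipin had 5.22 and 7.15 CPM in Lenti-GFP against 5.49 and 5.13 CPM in Lenti-AS, so the groups overlapped and Lenti-GFP 2 alone was high. Its log2 fold change was -0.22 with a 95% interval from -0.67 to 0.23 (adjusted p = 0.520 from edgeR), and the difference between Timeless and Tipin was not tested.

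None of the checkpoint kinases was called. Chek2, the kinase that ATM activates at breaks, had 10.4 and 10.1 CPM in Lenti-GFP against 13.1 and 12.6 CPM in Lenti-AS, with no overlap (adjusted p = 0.126 from edgeR, log2 fold change 0.32 with a standard error of 0.091). Chek1, the kinase that claspin serves, had 15.0 and 16.0 CPM in Lenti-GFP against 16.1 and 15.6 CPM in Lenti-AS. Its groups overlapped, and the 95% interval of its log2 fold change ran from -0.17 to 0.23. Atm, the apical kinase of the response to breaks, had 86.4 and 87.3 CPM in Lenti-GFP against 88.4 and 98.6 CPM in Lenti-AS, where Lenti-AS 2 alone stood apart (log2 fold change 0.11, adjusted p = 0.432 from edgeR). Rad18, the ligase that puts ubiquitin on PCNA at stalled forks, had 18.6 and 18.3 CPM in Lenti-GFP against 20.6 and 19.6 CPM in Lenti-AS (log2 fold change 0.13, adjusted p = 0.360 from edgeR).

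Of the 6 measured cofactors of strand invasion, 0 were called by edgeR, where 1.31% of all genes were called higher and 0.667% lower. At an unadjusted p under 0.05 from edgeR, 2 of the 6 were higher and 0 lower, against 12.5% and 9.37% of all genes. Rad51ap1, which promotes the pairing of the strands, had 5.58 and 5.21 CPM in Lenti-GFP against 7.85 and 7.36 CPM in Lenti-AS, with a log2 fold change of 0.49 (standard error 0.12, adjusted p = 0.107 from edgeR and 0.0318 from DESeq2, which called it). Rad54b, a DNA motor of the strand exchange step, had 5.13 and 5.01 CPM in Lenti-GFP against 6.19 and 6.66 CPM in Lenti-AS (log2 fold change 0.34, adjusted p = 0.203). The groups of both genes lay apart. Its relative Rad54l had 14.6 and 15.6 CPM in Lenti-GFP against 16.3 and 19.8 CPM in Lenti-AS, with the larger part of the difference in Lenti-AS 2 (adjusted p = 0.253).

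Of the other cofactors, Rad51c and Rad51d were less steady between replicates, and Xrcc2 had few counts. Xrcc2, with the fewest counts of the 29 genes (183 to 255 per sample), had 2.10 and 1.93 CPM in Lenti-GFP against 2.91 and 2.54 CPM in Lenti-AS. Its groups lay apart by 0.441 CPM, against 0.169 CPM within Lenti-GFP and 0.369 CPM within Lenti-AS. The log2 fold change of Xrcc2 was 0.44 with a standard error of 0.19. Rad51c had 6.53 and 6.98 CPM in Lenti-GFP, 10.7 CPM in Lenti-AS 1 and 7.16 CPM in Lenti-AS 2. Its log2 fold change of 0.40 therefore rested on 1 sample, with the largest standard error of the list (0.20), and was 0.08 without Lenti-AS 1 and 0.66 without Lenti-AS 2. Rad51d overlapped between the groups, at 12.6 and 10.2 CPM in Lenti-GFP against 11.5 and 12.5 CPM in Lenti-AS.

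None of the 4 end resection genes was called by edgeR, and the 3 that begin resection stayed near their Lenti-GFP levels. Rad50, the coiled ATPase that holds the ends, had 107 and 113 CPM in Lenti-GFP against 110 and 107 CPM in Lenti-AS, from 8016 to 10684 counts per sample. Its log2 fold change was -0.02 with the smallest standard error of the list (0.060) and a 95% interval from -0.17 to 0.13. Nbn, which recruits ATM to the complex, had 91.2 and 96.1 CPM in Lenti-GFP against 93.1 and 86.2 CPM in Lenti-AS. Rbbp8, which encodes CtIP, the cofactor that starts resection, had 94.9 and 95.9 CPM in Lenti-GFP against 92.4 and 85.9 CPM in Lenti-AS (log2 fold change -0.10, adjusted p = 0.420 from edgeR). The 95% intervals of these 3 log2 fold changes reached no further than -0.26 and 0.13. Exo1, the exonuclease of long-range resection, had 9.99 and 11.4 CPM in Lenti-GFP against 14.1 and 14.3 CPM in Lenti-AS, with a log2 fold change of 0.40 (standard error 0.10, adjusted p = 0.107 from edgeR and 0.0327 from DESeq2, which called it).

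Of the nuclease that cuts recombination junctions, the catalytic subunit Mus81 overlapped between the groups (30.9 and 27.5 CPM in Lenti-GFP against 27.2 and 30.3 CPM in Lenti-AS). Its partner Eme1 did not, with 7.22 and 6.74 CPM in Lenti-GFP against 8.45 and 9.43 CPM in Lenti-AS (adjusted p = 0.173 from edgeR, log2 fold change 0.36 with a standard error of 0.12).

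The Fanconi core complex, the ubiquitin ligase that acts on FANCD2, was not called in any of its 5 measured subunits by edgeR. Fanca, a subunit that brings the complex to chromatin, had 21.0 and 18.6 CPM in Lenti-GFP against 24.2 and 28.7 CPM in Lenti-AS. It had a log2 fold change of 0.42 (standard error 0.11, adjusted p = 0.113 from edgeR and 0.0204 from DESeq2, which called it). The other 4 overlapped between the groups. Fancl, the catalytic RING subunit, had 19.1 and 17.8 CPM in Lenti-GFP against 18.6 and 18.9 CPM in Lenti-AS, with a 95% interval of the log2 fold change from -0.16 to 0.21. Fancb, the partner of FANCL in the catalytic module, had a log2 fold change of 0.20 (standard error 0.14) and Fancc, a subunit of the bridge to FANCD2, one of -0.01 (standard error 0.12). Of the 5 subunits, Fance, which contacts FANCD2, varied most within a group. It had 36.3 and 29.8 CPM in Lenti-GFP, 27.9 CPM in Lenti-AS 1 and 40.8 CPM in Lenti-AS 2.

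**Figure D3:**
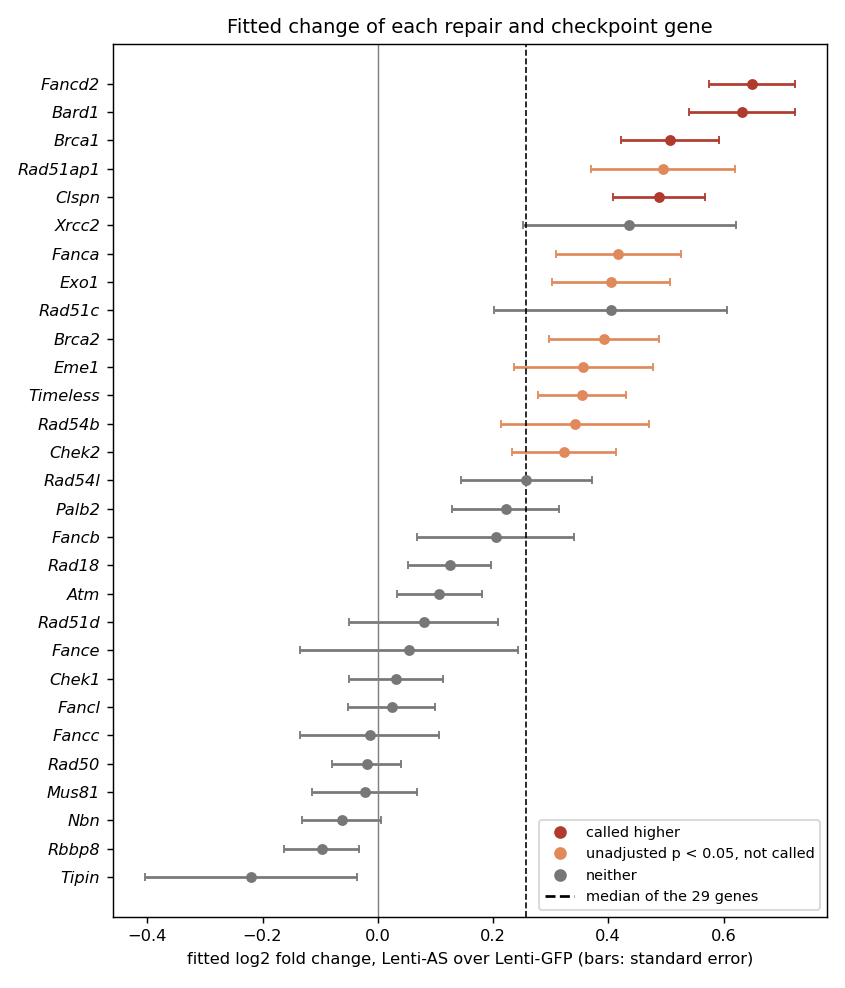
Fitted log2 fold change of each of the 29 genes, Lenti-AS over Lenti-GFP, with its standard error; the dashed line is their median of 0.26. The 4 called genes lie between 0.49 and 0.65, and 9 genes lie within 0.1 of no change on the log2 scale, among them Rad50, Nbn, Rbbp8, Mus81 and Chek1.

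The same pathways hold further genes, and 52 genes of such a companion list were tested. Of these, 3 (5.77%) were called higher and 0 lower by edgeR, against 1.31% and 0.667% of all genes tested. DESeq2 called 10 higher and 0 lower, against 3.92% and 1.12% of all genes. At an unadjusted p under 0.05 from edgeR, 14 (26.9%) were higher and 2 lower, against 12.5% and 9.37% of all genes. Without overlap, 24 (46.2%) lay above Lenti-GFP and 9 (17.3%) below, against 27.7% and 27.2% of all genes. The median log2 fold change was 0.07. Of the 3 called by edgeR, H2afx and Polq are described. H2afx, which encodes the histone variant that is phosphorylated around a break, rose from 141 and 137 CPM to 189 and 213 CPM (log2 fold change 0.53, adjusted p = 0.0328 from edgeR). Polq, the polymerase of the alternative joining of resected ends, rose from 5.84 and 5.87 CPM to 9.08 and 10.4 CPM (log2 fold change 0.74, adjusted p = 0.0499). Of other repair routes, 0 of 9 end joining genes and 0 of 6 mismatch repair genes were called in either direction by edgeR or DESeq2. Where edgeR called 1.31% of all genes higher and 0.667% lower, 0 calls among 15 genes say little about these routes. At an unadjusted p under 0.05 from edgeR, 0 of the 15 changed, where 12.5% of all genes were higher and 9.37% lower. The median log2 fold changes of the end joining and mismatch repair genes were 0.06 and 0.00.

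Many of the listed genes are transcribed mainly in S and G2 phase, so genes of these phases, none of them among the 29, were measured beside them. Of 30 S phase genes tested, 4 (13.3%) were called higher and 0 lower, with a median log2 fold change of 0.24. Of 46 G2/M genes tested, 28 (60.9%) were called higher and 0 lower, with a median of 0.44. Of all genes tested, 1.31% were called higher. At an unadjusted p under 0.05 from edgeR, 63.3% of S phase, 80.4% of G2/M and 41.4% of the 29 genes were higher. The share of all genes was 12.5%, and 0 in these lists were lower. Both Lenti-AS samples exceeded both Lenti-GFP samples in 80.0%, 93.5% and 62.1%, against 27.7% of all genes. The reverse held in 3.33%, 0% and 3.45%. Summed over each list, S phase genes had 1645 and 1655 CPM in Lenti-GFP against 1916 and 1876 CPM in Lenti-AS, and G2/M genes 3237 and 3327 CPM in Lenti-GFP against 4267 and 4282 CPM in Lenti-AS. The 29 genes summed to 738 CPM in both Lenti-GFP samples and to 794 and 823 CPM in Lenti-AS. The proliferation marker Mki67 had 198 and 236 CPM in Lenti-GFP against 362 and 359 CPM in Lenti-AS (log2 fold change 0.73, adjusted p = 0.0264 from edgeR), and Top2a 322 and 332 CPM in Lenti-GFP against 450 and 432 CPM in Lenti-AS (log2 fold change 0.43, adjusted p = 0.0276). Mki67 and Top2a belong to the 46 G2/M genes and are already part of that count and sum. All these sums and both markers were higher in both Lenti-AS samples. The part of cell cycle phase in the changes of the repair and checkpoint genes was not tested.

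**Figure D4:**
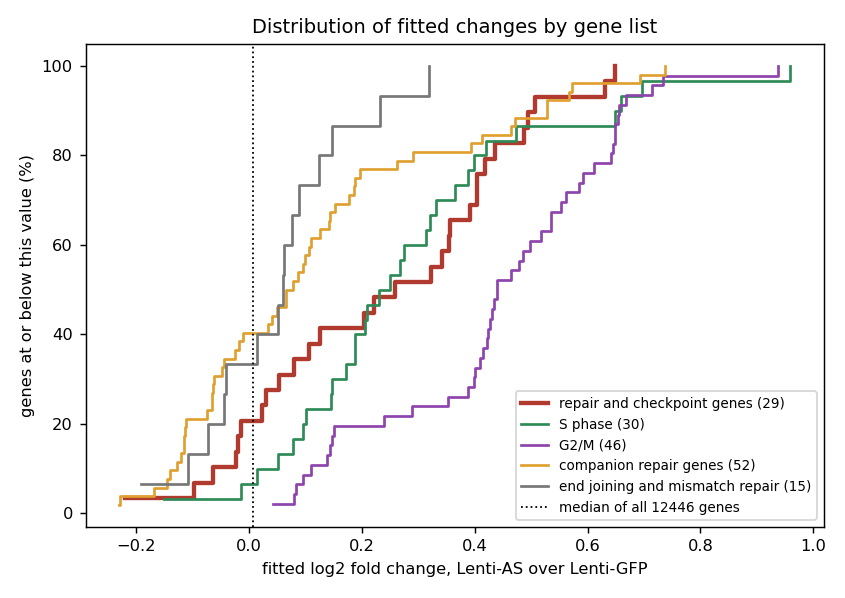
Cumulative share of genes by fitted log2 fold change, Lenti-AS over Lenti-GFP, for the repair and checkpoint genes (29), the S phase (30), G2/M (46) and companion repair genes (52), and end joining with mismatch repair (15); the dotted line is the median of all genes tested. The repair and checkpoint genes have a median of 0.26 beside 0.24 for the S phase and 0.44 for G2/M genes.

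The number of called genes rested on the test and on single samples. DESeq2 called 8 of the 29 higher, the 4 named and Brca2, Exo1, Fanca and Rad51ap1, where it called 3.92% of all genes higher. With the replicate number as a block, 0 of the 29 and 0.0241% of all genes were called higher, while 11 of the 29 and 11.2% of all genes were higher at an unadjusted p under 0.05. Without Lenti-GFP 1 or without Lenti-GFP 2, 0 genes of the whole table were called higher, so the 0 of the 29 says nothing about them. In each of these fits 7 of the 29 were higher at an unadjusted p under 0.05, against 7.09% of all genes without Lenti-GFP 1 and 5.01% without Lenti-GFP 2. Without Lenti-AS 1, 11 were called, where 4.58% of all genes were called higher. Without Lenti-AS 2, the sample with globin transcripts, 7 were called, where 10.2% of all genes were. The log2 fold changes without Lenti-AS 1 and without Lenti-AS 2 were 0.65 and 0.65 for Fancd2, and 0.73 and 0.53 for Bard1. They were 0.58 and 0.43 for Brca1, and 0.48 and 0.49 for Clspn. In these 2 fits the spread came from the Lenti-GFP samples alone. Between replicates, the mean chi-square per gene was 103 in Lenti-AS and 32.4 in Lenti-GFP, so that spread may be too small for Lenti-AS. With 2 samples per group, an exact permutation test over samples cannot give a two-sided p under 0.333.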

How the data were processed

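RNA-seq counts of 2 Lenti-GFP and 2 Lenti-AS samples of rat SCs were analysed, with groups and replicate numbers taken from the labels. Reads (paired-end, 50 bp) were aligned to rn6 by the authors, who counted them per gene with featureCounts on RefSeq exons; the deposited values are whole-number counts, not normalized. The paper names hisat2 as the aligner, while the submitters' processing notes name GSNAP. The strand setting is not given in the sources used here, so overlapping genes are uncertain. A row repeating the header (1) was dropped.

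The tests used the 12446 genes that reached 10 counts in 2 or more samples, in R 4.3.3 with edgeR 4.0.16 (TMM factors, glmQLFit in its default legacy form, glmQLFTest, no replicate term), adjusted by Benjamini-Hochberg. The biological coefficient of variation was 12.1%. Standard errors were computed from the F statistic. DESeq2 1.42.0 (no adjusted p for 2413 genes), limma-voom (limma 3.58.1), other scalings, filters and cut-offs, a replicate block and leaving out each sample were alternatives. The test was tested on simulated counts. The members and lists were chosen with earlier results of these data known. All listed genes with a row are named, with companion genes that were called, of which 1 is not reported here. RefSeq promoters and gene names are those of GRCr8.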

Additional observations from a re-analysis of the deposited data

How the results depend on the processing

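Of the 29 repair and checkpoint genes, 4 were called higher with edgeR's default fit, with RLE or upper-quartile factors and with library totals. The number was also 4 under both other low-count filters and with no limit on the fold. Of all genes tested, these settings called between 1.29% (no low-count filter) and 1.69% (library totals) higher. The count among the 29 was 8 with DESeq2, where 3.92% of all genes were called higher. It was 2 with limma-voom (1.21% of all genes), the newer quasi-likelihood fit (1.21%) and a fold of at least 1.5 (0.651%). Bard1 and Fancd2 were called in these last 3. Without the globin genes the count was 3 (1.29% of all genes), and Clspn was lost, at a log2 fold change of 0.49. With the replicate block it was 0 (0.0241% of all genes). The log2 fold changes under the block were 0.65 for Fancd2, 0.63 for Bard1, 0.51 for Brca1 and 0.49 for Clspn. Leaving out each sample gave 0 to 11, and these fits assume that the lone sample varies like the other group. The companion genes called higher were 3, or 10 with DESeq2, 2 with limma-voom, the newer fit, the 1 CPM filter and without globin genes, 1 with a fold of at least 1.5 and 0 with the replicate block, and 0 to 10 with a sample left out. Over all genes, 163 were called higher and 83 lower. DESeq2 called 488 and 139, a fold of at least 1.5 left 81 and 43, the replicate block left 3 and 14, and leaving out a sample gave 0 to 1266 higher and 1 to 271 lower. No listed gene was called lower under any of these alternatives. No label ties equal replicate numbers to a culture or day, and deviations from the group means had a correlation of -0.018 across genes between samples of equal number. The cause of the lower counts under the block was not tested.

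The median log2 fold change of the 29 genes was 0.26, between 0.25 and 0.29 under other tests, scalings and filters, and between 0.17 (without Lenti-AS 2) and 0.31 (without Lenti-GFP 1) with a sample left out. With library totals, Rad50, Mus81 and Fancc changed sign, to 0.0125, 0.0089 and 0.0178. With a sample left out, 8 genes changed sign, none of them called: the log2 fold change ranged from -0.062 to 0.24 for Rad51d, -0.051 to 0.018 for Rad50, -0.10 to 0.069 for Mus81, -0.10 to 0.071 for Fancc, -0.24 to 0.30 for Fance, -0.024 to 0.078 for Fancl, -0.011 to 0.079 for Chek1 and -0.43 to 0.027 for Tipin. Depth ranged from 183 to 10684 counts per gene and sample, with standard errors from 0.060 to 0.20.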
